A study of Homo sapiens with 24 samples.

Results

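The integrated stress response core genes are 10 genes of 1 signalling pathway: 4 kinases that phosphorylate the translation factor eIF2 alpha (EIF2AK1, EIF2AK2, EIF2AK3 and EIF2AK4), 2 regulatory subunits of the phosphatase that reverses this (PPP1R15A and PPP1R15B) and 4 transcription factors (ATF3, ATF4, ATF5 and DDIT3). They were chosen by name, with earlier results of these data known: GENCODE v29 symbols were matched to the Ensembl identifiers of the count tables, and all 10 were found among 57500 genes. RNA was sequenced from spheroids of FaDu and SAS, established human head and neck squamous carcinoma cell lines, each grown alone without other cell types. Each spheroid type had an untreated control group, a group irradiated once (RT, a dose of 7 Gy in FaDu spheroids but 10 Gy in those of SAS), a group heated to 42.5 °C for 60 min (HT) and a group heated and then irradiated (HT + RT), with 3 libraries per group from independent experiments. Spheroids had been cultured for 4 days to a mean diameter near 400 µm, and RNA was taken 0.5 h after treatment. The 24 libraries held between 15203484 and 29452514 counts each, with a median of 18378943. Because the radiation dose differed, any comparison of RT or HT + RT between spheroid types is also a comparison of doses.

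In the integrated stress response, kinases that sense different stresses converge on the phosphorylation of eIF2 alpha, which slows the translation of most mRNAs and favours a few whose leaders hold upstream start codons, ATF4 among them. ATF4 and its dimer partners then switch on genes for amino acid supply, redox balance and cell death, and PPP1R15A, itself induced by stress, recruits protein phosphatase 1 to eIF2 alpha and ends the block. Phosphorylation and translation carry much of this signal, and transcript counts measure neither.

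Levels are given as CPM, gene counts relative to library size, scaled by TMM factors over all 24 libraries, and levels of different genes are set side by side as CPM per kilobase of merged exons (CPM per kb). Differences are log2 fold changes with their standard error (SE) from edgeR fits over all genes tested in a comparison. A gene was called altered when its adjusted p was below 0.05 and its absolute log2 fold change above 1, and passing adjusted p alone is stated separately. All 10 members passed the filter on low counts in all 14 comparisons, and the lowest count of a member in a library was 62, for ATF3. The RNA came from whole spheroids, so fewer cells with a transcript and less of that transcript per cell cannot be told apart.

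In the control spheroids the members spanned a wide range of levels. ATF4 was the most abundant in FaDu controls, at 145 ± 9.11 CPM per kb (SD, n = 3), and in SAS controls, at 110 ± 7.9 CPM per kb. ATF3 was the lowest in both, at 0.768 ± 0.0996 CPM per kb in FaDu and 1.84 ± 0.372 in SAS. In FaDu controls EIF2AK1 (19.6 CPM per kb), EIF2AK2 (18.7), ATF5 (17.1) and PPP1R15B (15.2) followed ATF4, and each overlapped its neighbour in range. Below them came DDIT3 (8.97), PPP1R15A (7.46), EIF2AK4 (4.41) and EIF2AK3 (2.11), whose replicate ranges did not overlap one another. The order in SAS controls was ATF4, EIF2AK1 (47.8 CPM per kb), PPP1R15A (35.3), DDIT3 (17.5), PPP1R15B (16.1), EIF2AK2 (12.6), EIF2AK4 (6.84), ATF5 (4.46), EIF2AK3 (3.74) and ATF3, where the neighbours DDIT3 and PPP1R15B and the neighbours ATF5 and EIF2AK3 overlapped. PPP1R15A thus stood in place 7 in FaDu and in place 3 in SAS before any treatment.

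Between the controls, 4 of the 10 members were altered, against 38.1% of 15810 genes tested, and 9 passed adjusted p alone, against 75% of them. These shares are near those of all genes, so the counts say little about the members. The 4 were PPP1R15A (log2 fold change of FaDu over SAS -2.22, SE 0.102), EIF2AK1 (-1.26, SE 0.0583), ATF3 (-1.24, SE 0.199) and ATF5 (1.96, SE 0.102). In each of them the FaDu and SAS control libraries did not overlap. DDIT3 lay just inside the threshold at -0.942, and passed it at -1.03 without SAS control replicate 3. PPP1R15B alone missed adjusted p, at 0.57.

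**Figure D1:**
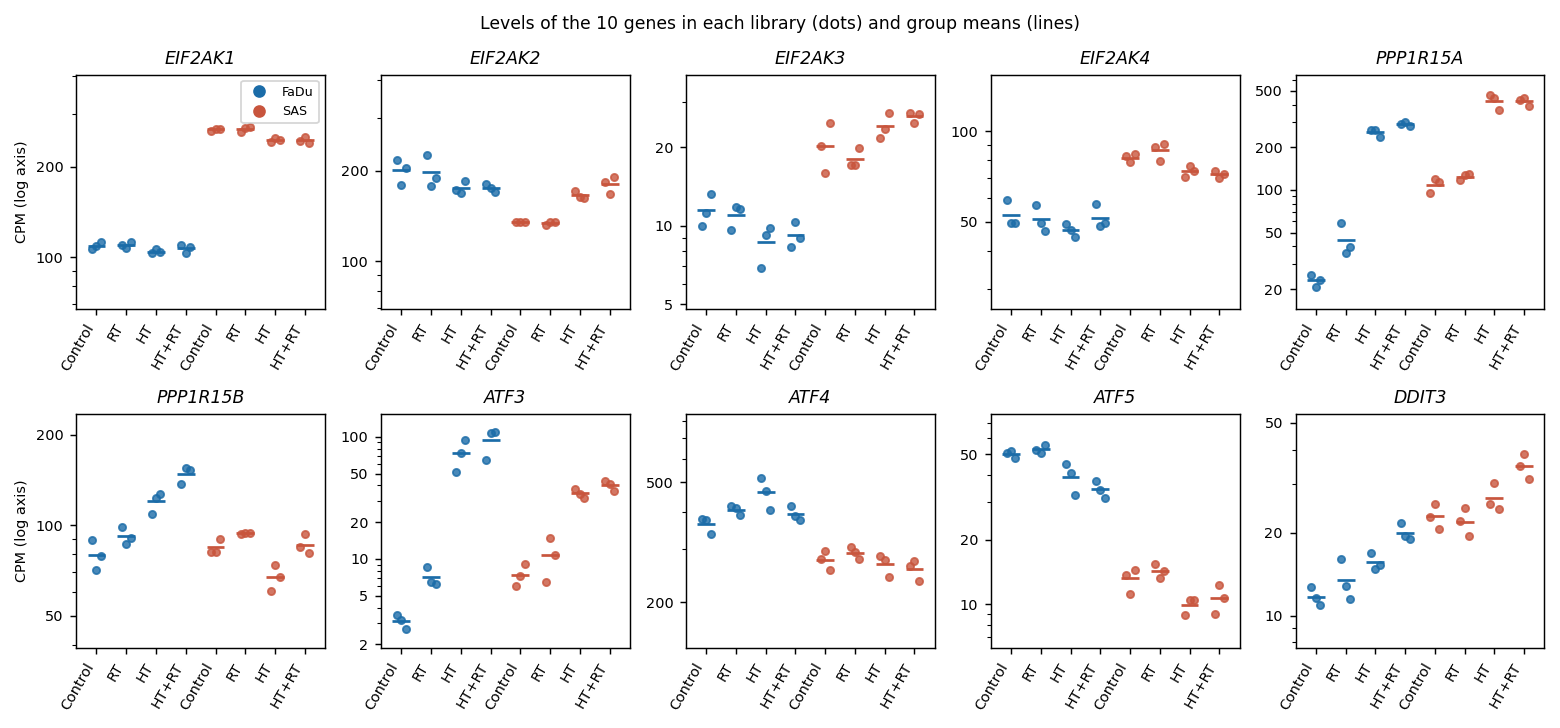
Level of each of the 10 genes in each of the 24 libraries (dots, CPM on a log axis) with the mean of each group of 3 (lines), for control, RT, HT and HT + RT in FaDu (blue) and SAS (red). PPP1R15A and ATF3 lie higher in every heated library than in every unheated library of the same spheroid type, whereas no other gene was altered in a treated group.

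Heat was the treatment that separated the members. After HT, 2 of the 10 members were altered in FaDu (4.97% of 15879 genes tested) and 2 in SAS (6.03% of 15000), all higher than control. Both times they were PPP1R15A and ATF3. Under adjusted p alone, 5 members passed in FaDu, where 17.6% of all genes did, and 4 in SAS, where 23.6% did. DESeq2 gave the same counts, with ATF5 in place of DDIT3 in FaDu. The median log2 fold change of the 10 members was 0.163 in FaDu and 0.0903 in SAS, beside 0.00606 and 0.0025 for all genes tested.

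After HT + RT the same pair of genes was altered in each spheroid type: 2 members in FaDu (5.72% of 15896 genes) and 2 in SAS (6.36% of 14938). Under adjusted p alone 5 members passed in FaDu (19.3% of all genes) and 4 in SAS (25.1%). HT + RT and HT were each compared with the same control libraries, so their values are not independent. The heat effect among irradiated spheroids, HT + RT against RT, shares no library with HT against control. Residuals of HT + RT and HT libraries of equal number still correlated, at 0.57, 0.24 and 0.34 in FaDu. In SAS they correlated at 0.19, 0.17 and 0.3, so these 2 comparisons are not shown to be independent. HT + RT against RT again gave PPP1R15A and ATF3, which makes 2 members in FaDu (5.39% of 15905 genes) and 2 in SAS (6.6% of 15125). Under adjusted p alone it gave 5 members in FaDu, beside 19.3% of all genes, and 7 in SAS, beside 27.8%.

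Radiation alone altered 0 members in FaDu by edgeR (0.00643% of 15552 genes) and 0 in SAS (0.0272% of 14680). Under adjusted p alone the counts were also 0, beside 0.0322% of all genes in FaDu and 0.0749% in SAS. At an unadjusted p below 0.05 there were 4 members in FaDu (PPP1R15A, PPP1R15B, ATF3 and ATF4), beside 791 of 15552 genes, and 1 in SAS (PPP1R15B), beside 834 of 14680 genes. DESeq2 called ATF3 altered in FaDu, where 12 of 14282 genes were altered, and passed 2 members on adjusted p alone, ATF3 and PPP1R15A, beside 58 genes, and passed 0 in SAS. With replicate number as a block, edgeR called ATF3 altered in FaDu, beside 28 of 15552 genes, passed 3 members on adjusted p alone, beside 312 genes, and passed 0 in SAS.

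What radiation added to heat, HT + RT against HT, altered 0 members in FaDu (0% of 16145 genes) and 0 in SAS (0% of 15341) by edgeR, and 0 passed adjusted p alone (0% of all genes in each). At an unadjusted p below 0.05 there were 4 members in FaDu, beside 361 of 16145 genes, and 3 in SAS, beside 673 of 15341 genes, and DESeq2 passed 0 in both. The zeros depended on the fit: with the replicate block 5 members passed adjusted p alone in FaDu, beside 154 of 16145 genes, and 2 in SAS, beside 139 of 15341. Residuals of libraries with equal replicate number correlated at 0.57, 0.24 and 0.34 in this FaDu comparison and at 0.19, 0.17 and 0.3 in the SAS one.

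**Figure D2:**
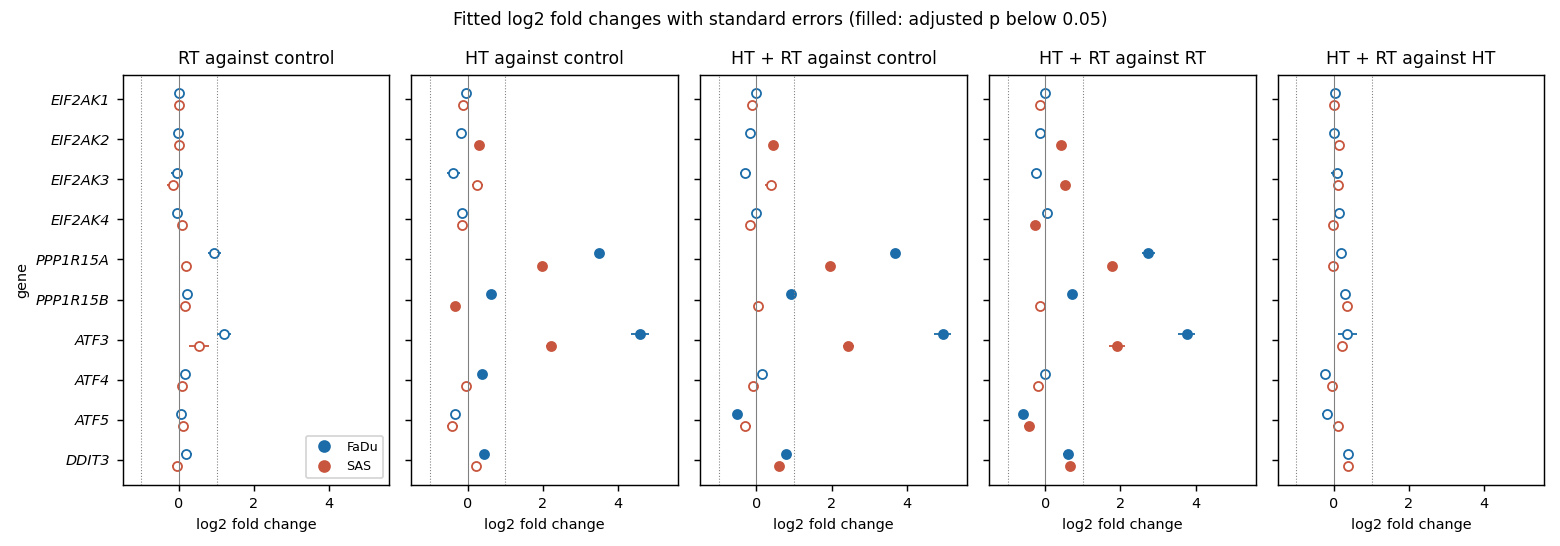
Log2 fold change (horizontal axis) with its standard error for each of the 10 genes (vertical axis) in 5 comparisons, FaDu in blue and SAS in red; filled dots passed adjusted p, and dotted lines mark a log2 fold change of 1 either way. PPP1R15A and ATF3 lie past 1 in the 3 panels that compare heated with unheated spheroids, in both spheroid types.

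The kinases come first in the pathway. EIF2AK1 (ENSG00000086232), the heme-regulated kinase that also relays mitochondrial stress, differed more between the spheroid types than between treatments: the FaDu group means lay between 104 and 110 CPM and the SAS group means between 245 and 267 CPM. In SAS the heated libraries lay below the unheated ones without overlap, but the log2 fold change after HT was small, at -0.114 (SE 0.0505), and its adjusted p was 0.128. Among irradiated SAS spheroids it was -0.128 with heat (adjusted p 0.07). That value passed with the replicate block (0.0152) and with all groups in 1 fit (0.0421). EIF2AK2 (ENSG00000055332), the kinase PKR that binds double-stranded RNA, rose with heat in SAS. There it measured 135 CPM in each of the 3 controls, 172, 164 and 162 CPM after HT and 184, 168 and 191 CPM after HT + RT. All 6 heated SAS libraries lay above all 6 unheated ones, which ran from 132 to 135 CPM. The log2 fold change in SAS was 0.301 after HT (SE 0.0542, adjusted p 0.00176) and 0.432 after HT + RT (SE 0.0606, adjusted p 0.000313). In FaDu EIF2AK2 measured 218, 179 and 205 CPM in controls and 173, 169 and 185 CPM after HT, and these groups overlapped. Its FaDu log2 fold change of -0.171 (SE 0.0828) had an adjusted p of 0.201.

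The difference between the spheroid types was tested by an interaction term, the FaDu log2 fold change minus the SAS one. For EIF2AK2 it was -0.443 for HT (SE 0.0987, adjusted p 0.0148) and -0.568 for HT + RT (SE 0.102, adjusted p 0.00248). This tests whether the changes differ and not whether their signs are opposite, and the FaDu value did not pass by itself. EIF2AK3 (ENSG00000172071), the kinase PERK of the endoplasmic reticulum, was the scarcest kinase at 1.59 to 2.11 CPM per kb over the FaDu groups and 3.32 to 4.84 over the SAS groups. In irradiated SAS spheroids it rose with heat, from 17.1, 17.1 and 19.9 CPM after RT to 27.1, 24.8 and 26.9 CPM after HT + RT. These groups did not overlap, and the log2 fold change was 0.538 (SE 0.0965, adjusted p 0.00164). Against the SAS control, whose 3 libraries spread from 15.9 to 24.9 CPM, the log2 fold change was 0.377 with an adjusted p of 0.0719. Without SAS control replicate 3 it was 0.546 with an adjusted p of 0.0053. Adjusted p was 0.00256 with the replicate block and 0.0129 without the filter on low counts, and its highest value was 0.225. EIF2AK4 (ENSG00000128829), the kinase GCN2 that senses uncharged tRNA, fell in the same comparison of irradiated SAS spheroids, by 0.267 on the log2 scale (SE 0.0651, adjusted p 0.00991, groups without overlap). Against the SAS control EIF2AK4 was -0.146 after HT (adjusted p 0.123) and -0.176 after HT + RT (adjusted p 0.0538). The HT + RT value passed with the replicate block (0.0169) and with all groups in 1 fit (0.0424). In FaDu none of the 4 kinases passed adjusted p in any of the 5 treatment comparisons by edgeR, where their unadjusted p was at least 0.0507, and in DESeq2 none did either. The replicate block passed EIF2AK2 and EIF2AK3 there as lower after HT, at an adjusted p of 0.0248 and 0.0154, and after HT + RT, at 0.0244 and 0.0499.

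PPP1R15A (ENSG00000087074), also named GADD34, encodes the stress-induced subunit that brings protein phosphatase 1 to eIF2 alpha. Its promoter is shown because it was 1 of 2 members altered by heat. The promoter table used, from RefSeq (GRCh38.p14), matched 9 of the 10 members with 14 start sites; EIF2AK1 had no entry in it. The 250 bases before the PPP1R15A start, on the + strand at chr19:48872171-48872420, hold 1 TGACGTCA, the cyclic AMP response element, from base -58 to base -51; these letters are in capitals.
PPP1R15A: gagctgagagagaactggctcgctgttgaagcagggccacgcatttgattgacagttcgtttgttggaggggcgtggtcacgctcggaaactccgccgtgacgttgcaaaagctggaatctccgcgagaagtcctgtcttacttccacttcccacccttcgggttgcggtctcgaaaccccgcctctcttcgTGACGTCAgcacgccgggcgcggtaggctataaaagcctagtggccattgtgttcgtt
On both strands TGACGTCA occurs in 1.65% of 35116 promoters of this length. The heat shock element units GAANNTTC (5.78% of promoters) and TTCNNGAA (6.62%) occur before none of the 14 start sites of members. A match describes letters only, and its absence says only that these letters are not in this window.

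In FaDu the PPP1R15A level was 25.1, 20.8 and 23.3 CPM in the control libraries, 58.7, 35.8 and 39.3 CPM after RT, 264, 265 and 238 CPM after HT and 292, 303 and 283 CPM after HT + RT. The 6 heated libraries lay far above the 6 unheated ones, and the RT libraries lay above the controls, with replicate 1 the highest of them. In SAS the level was 94.4, 120 and 113 CPM in controls, 118, 127 and 129 CPM after RT, 465, 448 and 367 CPM after HT and 434, 444 and 393 CPM after HT + RT. Heated and unheated SAS libraries did not overlap, whereas RT and control overlapped. Every heated FaDu library lay above every unheated SAS library and below every heated SAS library.

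The log2 fold change of PPP1R15A after HT was 3.49 in FaDu (SE 0.0863, adjusted p 8.53e-08) and 1.97 in SAS (SE 0.101, adjusted p 6.16e-08). After HT + RT it was 3.69 in FaDu (SE 0.0829, adjusted p 2.01e-08) and 1.96 in SAS (SE 0.0863, adjusted p 1.81e-08). Among irradiated spheroids, heat gave 2.74 in FaDu and 1.77 in SAS. The response was larger in FaDu by the interaction term, at 1.55 for HT (SE 0.142, adjusted p 1.22e-05) and 1.76 for HT + RT (SE 0.125, adjusted p 4.81e-07). The spheroid type with the lower start therefore had the larger fold and the lower end point.

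After RT alone the FaDu log2 fold change of PPP1R15A was 0.946 (SE 0.172) and its adjusted p 0.235, with all 3 RT libraries above all 3 controls. This result depended on the test. When the fit took replicate number as a block, adjusted p was 2.02e-09, by DESeq2 1.22e-05 and without FaDu RT replicate 1 it was 0.0317 at a log2 fold change of 0.702. Over the alternatives the adjusted p ran from 1.72e-19 to 1. In SAS the RT value was 0.187, and the interaction term of 0.761 had an adjusted p of 1, or 0.000557 with the replicate block.

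PPP1R15B (ENSG00000158615), the constitutive subunit of the same phosphatase, rose with heat in FaDu and was lower after HT in SAS. It measured 89.3, 70.9 and 78.7 CPM in FaDu controls, 109, 123 and 127 CPM after HT and 137, 155 and 152 CPM after HT + RT. In SAS it measured 81.5, 81.5 and 90 CPM in controls, 60.3, 73.9 and 67 CPM after HT and 84.6, 93.2 and 80.7 CPM after HT + RT. HT libraries lay above controls in FaDu and below them in SAS, without overlap in either, and SAS HT + RT overlapped its control. The log2 fold change after HT was 0.61 in FaDu (SE 0.0972, adjusted p 0.00359) and -0.325 in SAS (SE 0.0826, adjusted p 0.0136, or 0.0524 without SAS HT replicate 1, the highest of its alternatives, the lowest being 0.000312). After HT + RT it was 0.921 in FaDu (SE 0.0893, adjusted p 0.000202) and 0.0375 in SAS (adjusted p 0.758). Among irradiated spheroids heat gave 0.715 in FaDu (adjusted p 0.000464) and -0.13 in SAS (adjusted p 0.16), so the fall in SAS rests on HT against control. The FaDu value after HT + RT passed 1 only without FaDu control replicate 1, at 1.002. The interaction terms were 0.964 for HT (adjusted p 0.000645) and 0.917 for HT + RT (adjusted p 0.000216).

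Per kilobase, PPP1R15A went from below PPP1R15B to above it in FaDu and was above it throughout in SAS. In FaDu controls PPP1R15A stood at 0.475, 0.495 and 0.501 times PPP1R15B, and after RT at 1, 0.701 and 0.735 times. After HT the ratio was 4.09, 3.65 and 3.15 in the 3 FaDu libraries and after HT + RT 3.6, 3.31 and 3.14. In SAS controls the ratio was already 1.96, 2.48 and 2.13, the HT libraries had 13, 10.3 and 9.26, and HT + RT libraries had 8.68, 8.04 and 8.22. No heated library of either spheroid type had less PPP1R15A than PPP1R15B, and no FaDu control had more. After HT PPP1R15A was the most abundant member per kb in SAS, at 138 ± 16.9 beside 107 ± 9.16 for ATF4, and came directly after ATF4 in FaDu, at 82.7 ± 5.04 beside 185 ± 22. The order at the top was the same after HT + RT, with 137 ± 8.8 in SAS and 94.6 ± 3.39 in FaDu.

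**Figure D3:**
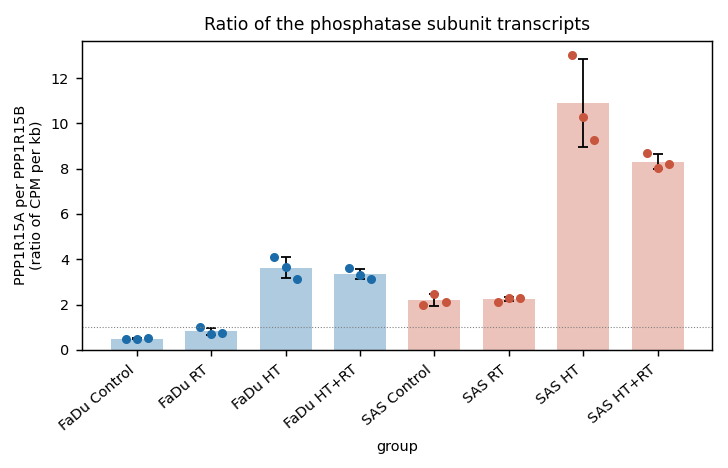
Ratio of PPP1R15A to PPP1R15B in CPM per kb (vertical axis) for the 8 groups (horizontal axis), as single libraries (dots), group means (bars) and SD (error bars); the dotted line marks equal levels. The mean ratio was 0.49 in FaDu controls and 3.63 after HT, and after HT it was 10.9 in SAS.

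Of the transcription factors, ATF3 (ENSG00000162772), a bZIP protein that represses or activates target genes depending on its partner, had the largest log2 fold changes of the 10 members after heat. Its RefSeq promoter before start 1, on the + strand at chr1:212565157-212565406, is printed as that of the other member altered by heat, with TGATGGAA, a match to the C/EBP-ATF response element TGATGNAA, and ATTGG, the CCAAT box CCAAT read on the other strand, in capitals.
ATF3: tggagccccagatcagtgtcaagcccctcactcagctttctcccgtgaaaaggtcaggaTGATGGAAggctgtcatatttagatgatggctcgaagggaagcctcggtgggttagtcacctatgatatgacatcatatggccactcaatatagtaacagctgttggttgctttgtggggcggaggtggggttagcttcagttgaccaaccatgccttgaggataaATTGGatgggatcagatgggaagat
TGATGNAA occurs in 3.14% of promoters and CCAAT in 32%, on both strands. ATF3 start 2 holds none of the 5 motifs searched, and gene counts do not tell which start the reads came from. Among the other members, PPP1R15B held 1 TGATGCAA, and CCAAT boxes lay before PPP1R15B, DDIT3, EIF2AK2 and EIF2AK3.

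The ATF3 level in FaDu was 3.47, 3.16 and 2.67 CPM in controls, 8.63, 6.44 and 6.18 CPM after RT, 51, 73.3 and 94.7 CPM after HT and 64.2, 107 and 110 CPM after HT + RT. Replicate 1 was the lowest FaDu library after HT and after HT + RT. In SAS the level was 6.04, 7.24 and 9.03 CPM in controls, 6.43, 14.9 and 10.7 CPM after RT, 37.7, 34.1 and 31.5 CPM after HT and 43.8, 41.3 and 35.8 CPM after HT + RT. Heated and unheated libraries did not overlap in either spheroid type, and RT overlapped its control in SAS but not in FaDu. ATF3 began lower in FaDu than in SAS and ended higher.

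The log2 fold change of ATF3 after HT was 4.59 in FaDu (SE 0.251, adjusted p 1.11e-05) and 2.22 in SAS (SE 0.139, adjusted p 4.01e-07), and after HT + RT it was 4.95 and 2.45. Among irradiated spheroids heat gave 3.76 in FaDu and 1.91 in SAS. The interaction term was 2.40 for HT (SE 0.302, adjusted p 0.000205) and 2.54 for HT + RT (SE 0.295, adjusted p 6.67e-05). After RT alone in FaDu, ATF3 stood at a log2 fold change of 1.19 (SE 0.187) with an adjusted p of 0.143, all 3 RT libraries above all 3 controls. It was altered by DESeq2 (adjusted p 0.00039), without the filter on low counts (7.85e-07) and with the replicate block (7.36e-06), and its adjusted p reached 0.834 in other alternatives. In SAS the RT value was 0.528 with an adjusted p of 0.912.

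ATF4 (ENSG00000128272), the factor whose translation the pathway controls, changed little as a transcript. In FaDu it measured 379, 376 and 338 CPM in controls and 517, 470 and 406 CPM after HT, without overlap. The log2 fold change was 0.368 (SE 0.0889, adjusted p 0.0223), and adjusted p rose to 0.0622, 0.101 and 0.0718 without FaDu control replicate 2, FaDu control replicate 3 and FaDu HT replicate 2, with 2.07e-05 the lowest of the alternatives. After HT + RT the FaDu value was 0.137 (adjusted p 0.217, or 0.0394 with the replicate block), and the interaction term of 0.267 had an adjusted p of 0.162, or 0.00558 with the block. In SAS ATF4 measured 279, 295 and 256 CPM in controls and 285, 277 and 242 CPM after HT, which overlapped, with a log2 fold change of -0.0431. Among irradiated SAS spheroids ATF4 was lower with heat in all 3 libraries without overlap, at -0.182 and an adjusted p of 0.0535. That value passed with the replicate block (0.00185), without the filter on low counts (0.00842), without SAS RT replicate 3 (0.0405) and without SAS HT + RT replicate 2 (0.0342), and its highest adjusted p was 0.189. The interaction term for HT was 0.442 (SE 0.122) with an adjusted p of 0.0473, which was 0.000426 with the replicate block, rose to 0.0609 with RLE size factors and lay between 0.0537 and 0.204 in the 11 of 12 fits without 1 library that lost it.

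ATF5 (ENSG00000169136), a factor related to ATF4 whose translation is controlled in the same way, was lower in heated FaDu libraries and, after HT, in SAS. In FaDu it measured 51, 51.9 and 48.3 CPM in controls, 45.1, 40.9 and 32.3 CPM after HT and 37.7, 34.3 and 31.4 CPM after HT + RT, with every heated library below every control. The fall passed the test after HT + RT, at -0.524 (SE 0.0825, adjusted p 0.00261), and not after HT, at -0.338 (SE 0.11, adjusted p 0.0665). Adjusted p after HT fell to 0.048 by DESeq2, 0.0347 with all groups in 1 fit and 0.0135 without FaDu HT replicate 1. It was 0.00353 without the filter on low counts and 0.00261 with the replicate block, and its highest value was 0.187. In SAS it measured 13.7, 11.2 and 14.5 CPM in controls and 8.91, 10.4 and 10.4 CPM after HT, without overlap, at a log2 fold change of -0.404 and an adjusted p of 0.0521. This SAS value passed without the filter on low counts (0.0331), with all groups in 1 fit (0.0412), with the replicate block (0.0258) and without SAS control replicate 2 (0.0256). Among irradiated SAS spheroids ATF5 fell with heat by 0.42 on the log2 scale (adjusted p 0.0348), and adjusted p was 0.115 without SAS RT replicate 1, 0.0576 without SAS RT replicate 3, 0.121 without SAS HT + RT replicate 1 and 0.0762 without SAS HT + RT replicate 3, with 0.0107 the lowest of the alternatives.

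DDIT3 (ENSG00000175197), also named CHOP, is a target of ATF4 that promotes cell death under lasting stress. In FaDu it measured 12.7, 11.6 and 10.9 CPM in controls, 16.9, 14.7 and 15.2 CPM after HT and 21.7, 19.4 and 19 CPM after HT + RT. In SAS it measured 22.8, 25.4 and 20.6 CPM in controls, 25.4, 30.3 and 24.4 CPM after HT and 34.8, 38.5 and 31.4 CPM after HT + RT. In both spheroid types every HT + RT library lay above every library of the other groups, and only in SAS did HT and control overlap. The log2 fold change after HT + RT was 0.799 in FaDu (SE 0.101, adjusted p 0.000836) and 0.611 in SAS (SE 0.105, adjusted p 0.00127). After HT it was 0.429 in FaDu (SE 0.107, adjusted p 0.0258) and 0.224 in SAS (SE 0.111, adjusted p 0.176). The FaDu call after HT was lost by DESeq2 (0.0534) and without FaDu control replicate 2 (0.0859), FaDu control replicate 3 (0.112) or FaDu HT replicate 3 (0.0719), and the lowest adjusted p was 0.0036. Neither interaction term passed, at 0.235 for HT (adjusted p 0.521) and 0.222 for HT + RT (adjusted p 0.472).

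In HT + RT against HT the members with the lowest unadjusted p were PPP1R15B and DDIT3 in both spheroid types. For DDIT3 the log2 fold change was 0.363 in FaDu and 0.382 in SAS, and for PPP1R15B it was 0.304 in FaDu and 0.357 in SAS. The HT + RT libraries lay above the HT libraries without overlap in all 4 cases. Adjusted p was 1 for both in FaDu, and 0.65 for DDIT3 and 0.38 for PPP1R15B in SAS. With replicate number as a block these 4 passed adjusted p, at 0.0341 and 0.00046 in FaDu and at 0.0102 and 0.00178 in SAS, together with PPP1R15A, ATF3 and ATF4 (lower) in FaDu, while other alternatives reached an adjusted p of 1 for each. Over all genes the fit without the block passed 0. ATF4 was the only FaDu member past an unadjusted p of 0.05 with a negative value, from 517, 470 and 406 CPM after HT to 417, 387 and 376 CPM after HT + RT, at -0.239 (adjusted p 1, or 0.0031 with the block).

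In the interaction terms over all members, 0 members were altered in the RT interaction (0% of 16811 genes) and 0 passed adjusted p alone (0.00595%), with 1 at an unadjusted p below 0.05, PPP1R15A, beside 460 of 16811 genes, and 0 by DESeq2. PPP1R15A passed adjusted p there with the replicate block (0.000557) and without the filter on low counts (6.6e-07). In the HT interaction 2 members were altered (2.74% of 17219 genes) and 5 passed adjusted p alone (5.55%). In the HT + RT interaction 2 were altered (3.4% of 17219) and 4 passed adjusted p alone (7.27%). The 2 altered were PPP1R15A and ATF3 in both, and their terms were positive. DESeq2 gave the same counts for both interactions, and the replicate block passed 6 members in each, beside 1886 of 17219 genes for HT and 2576 for HT + RT. EIF2AK3 was 1 of those gained, at -0.626 for HT (adjusted p 0.0121) and -0.666 for HT + RT (0.00416), beside 0.199 and 0.0896 without the block.

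Upstream start codons were counted in the leaders of the members. In 1 principal transcript per gene, the 5 prime leader held at least 1 upstream ATG in 80% of the 10 members and in 50.5% of 19559 protein-coding genes. ATF4 had the longest leader, 882 bases, with 7 upstream ATGs, and EIF2AK3 had 5, DDIT3 3, and PPP1R15A, PPP1R15B and ATF5 2 each. ATF3 and EIF2AK2 had 1, and EIF2AK1 and EIF2AK4 had 0. An upstream reading frame overlapped the main start in 50% of members (EIF2AK3, ATF3, ATF4, ATF5 and DDIT3) and in 16.6% of all genes. The median leader was 286 bases in members and 174 in all genes. No test was made of these shares. They are counts of letters in annotated transcripts, with no reading of which start codons are used in spheroids.

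Lists of genes around the core are set beside the shares of all genes given above for each comparison. After HT 4.97% of all genes were altered in FaDu and 6.03% in SAS, and 17.6% and 23.6% passed adjusted p alone. No difference of a list from such a share was tested. The 8 eIF2 and eIF2B subunits had 0 altered genes after HT in both spheroid types, with a median log2 fold change of 0.0571 in FaDu and 0.105 in SAS. On adjusted p alone there were 0 in FaDu and 2 higher in SAS. The 15 kinase and phosphatase partners, which include the catalytic subunits of protein phosphatase 1 and the chaperones that hold the kinases inactive, also had 0 altered. By adjusted p alone 2 were higher and 1 lower in FaDu, and 2 were higher and 3 lower in SAS. Between controls, EIF2B4 (-1.20) and EIF2B2 (1.18) of the subunits and NCK1 (1.02), IMPACT (1.54) and OMA1 (2.26) of the partners were altered, in log2 fold change of FaDu over SAS. Of all genes, 38.1% were altered there. NCK1 fell to 0.999 without FaDu control replicate 3, to 0.957 without SAS control replicate 3 and to 0.987 with all groups in 1 fit.

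The targets of ATF4 in metabolism held no altered gene after HT, where 4.97% of all genes were altered in FaDu and 6.03% in SAS. In lists of 16 and 13 genes such counts lie near those shares and say little about the targets. Of 16 genes of amino acid supply 0 were altered after HT, with a median log2 fold change of -0.0755 in FaDu and -0.0605 in SAS. Passing adjusted p alone, 0 were higher and 2 lower in FaDu, and 2 higher and 5 lower in SAS, beside 17.6% and 23.6% of all genes. SLC7A11, the cystine transporter, was the lowest in both, at -0.666 in FaDu and -0.818 in SAS (named after its values were seen). Of 13 tRNA synthetase genes 0 were altered after HT, with medians of 0.0211 in FaDu and -0.00287 in SAS. Synthetases passing adjusted p alone were 0 in FaDu and 1 higher in SAS. Between controls 3 synthetase genes were altered, TARS (-1.35), NARS (-1.10) and WARS (1.52), beside 38.1% of all genes. Of the 16 amino acid genes 2 were altered higher and 2 lower in FaDu controls.

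Of 20 stress effectors downstream of ATF4 and CHOP, 19 were tested in FaDu and 16 in SAS. After HT 2 were altered in FaDu, CHAC1, which degrades glutathione (log2 fold change 1.12), and PMAIP1, which encodes the death protein NOXA (1.08, and 0.978 without FaDu control replicate 2 or 0.99 without FaDu HT replicate 1). In SAS 1 was altered, PMAIP1 (1.39). Altered shares of all genes after HT were 4.97% in FaDu and 6.03% in SAS. Medians of the list were 0.104 in FaDu and -0.13 in SAS. Between controls 18 of the list were tested, and 2 were altered higher and 4 lower in FaDu, beside 38.1% of all genes. After HT + RT 4 were altered in FaDu: CHAC1 (2.03), ADM2 (1.60), PMAIP1 (1.16) and GADD45A (1.06). The count fell to 2 without FaDu control replicate 3, where GADD45A was 0.993 and ADM2 had an adjusted p of 0.0605. ADM2 also lost its call without FaDu control replicate 2 (0.0541), FaDu HT + RT replicate 2 (0.0616) or FaDu HT + RT replicate 3 (0.0511). In SAS 3 were altered, CHAC1 (1.81), PMAIP1 (1.79) and SESN2 (1.16, and 0.995 without SAS control replicate 1). Altered shares of all genes after HT + RT were 5.72% in FaDu and 6.36% in SAS. CHAC1 stood at 5.59, 5.9 and 6.69 CPM after HT and at 9.94, 11.9 and 12.3 CPM after HT + RT in FaDu, and at 3.3, 6.48 and 4.65 CPM and then 9.2, 13.6 and 11 CPM in SAS. The HT + RT libraries lay above the HT libraries in both. In the reported edgeR fit HT + RT against HT did not pass for CHAC1 (0.91 with an adjusted p of 0.869 in FaDu, 1.23 with 0.112 in SAS), and 0 genes of the list passed. In SAS 1 gene of the list was altered by DESeq2, without the filter on low counts and with the replicate block. These are counts of the list, so they do not say whether the gene was CHAC1. The highest value of the list in the reported SAS fit was that of CHAC1.

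Among irradiated spheroids heat altered CHAC1 in FaDu (1.75) and CHAC1 (1.97), PMAIP1 (1.57) and SESN2 (1.10) in SAS. SESN2 fell there to 0.998 without SAS HT + RT replicate 2 and to 0.965 without SAS RT replicate 1. In the HT interaction BCL2L11, which encodes the death protein BIM, was altered at -1.05, and at -0.961 without SAS control replicate 2. The count of altered genes of the list there ran from 0 to 4 when 1 library was left out. In the HT + RT interaction BCL2L11 (-1.14), SESN2 (-1.19) and ADM2 (2.64) were altered. ADM2 had a mean of at most 1.25 CPM in any group and lost its call without SAS control replicate 1, SAS HT + RT replicate 2 or SAS HT + RT replicate 3, where adjusted p was 0.0507, 0.0557 and 0.054, and with all groups in 1 fit, where it was 0.0733.

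The 15 dimer partners of these bZIP factors included the most heat-altered genes of the pathway lists, after the heat shock reference. After HT 6 were altered in FaDu, beside 4.97% of all genes, and 5 in SAS, beside 6.03%, all higher. The list medians were 0.688 and 0.42. This list was chosen with earlier results of these data known, and no difference from these shares was tested. The highest in FaDu were FOS (6.64), FOSB (4.04) and JUN (3.33), and the lowest of the 6 were FOSL1 (1.32), JUNB (1.62) and JUND (1.76). In SAS they were FOS (3.65), FOSB (2.26), JUN (1.25), CEBPD (1.13) and FOSL2 (1.02). FOSL2 fell to 0.954 without SAS control replicate 1 and to 0.993 without SAS HT replicate 2. Between controls 2 of the 15 were altered higher and 4 lower in FaDu, beside 38.1% of all genes. In the HT interaction 6 of the 15 were altered, beside 2.74% of all genes. All 6 were larger in FaDu, among them FOS at 3.02 and JUN at 2.11. FOSB, at 1.81 there, lost adjusted p without SAS control replicate 3 (1.26), SAS HT replicate 2 (1.75) or SAS HT replicate 3 (1.73). FaDu RT replicate 1, the library with the highest PPP1R15A and ATF3 of its group, also had the highest FOS, at 183 CPM beside 28.8 and 32.9 CPM, and the highest JUN, at 282 CPM beside 83.9 and 92 CPM. Replicate 1 stood apart from the others over all genes in every FaDu group, with a chi-square per gene of 13.6 to 19.5 in pairs with replicate 1 and of 3.29 to 4.69 between replicates 2 and 3. The part of this in the RT values of PPP1R15A and ATF3 was not tested, and without that library ATF3 stood above control at 1.03 and PPP1R15A at 0.702.

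The other arms of the unfolded protein response, through IRE1 and ATF6, had 0 of 14 genes altered after HT in both spheroid types. Of all genes 4.97% were altered in FaDu and 6.03% in SAS. Without the size threshold 0 were higher and 3 lower in FaDu, beside 17.6% of all genes. In SAS 1 was higher and 5 lower, beside 23.6%. No difference from these shares was tested. XBP1 was lower in both, at -0.534 in FaDu and -0.588 in SAS, and so were EDEM1 and SEL1L (all 3 named after their values were seen). Gene counts do not measure phosphorylation of IRE1 or splicing of XBP1, and the paper reported both after HT in both spheroid types. Medians of this list were 0.008 in FaDu and -0.13 in SAS. Between controls SEL1L (1.34) and CRELD2 (2.82) were altered, beside 38.1% of all genes. All 6 genes of the heat shock reference were altered after HT in both spheroid types, with medians of 4.88 in FaDu and 4.40 in SAS. The highest were HSPA6 (13.31 in FaDu and 11.36 in SAS, over control means of 0.441 and 0.751 CPM), HSPA1B (4.998 and 4.68), DNAJB1 in FaDu (4.96) and HSPA1A in SAS (4.56), and the lowest were HSPH1 (1.57 and 2.85) and BAG3 (1.57 and 2.99).

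Unlike PPP1R15A and ATF3, HSPH1 and BAG3 had negative HT interaction terms, at -1.25 and -1.39, so the heat response was not larger in FaDu for every gene. HSPA6 had a positive term of 1.98, which rests on 27 counts in the 3 FaDu controls and 40 in the 3 SAS controls and lost adjusted p in 8 of the 12 fits without 1 library. In the HT + RT interaction the terms were -1.09 for HSPH1, which fell to -0.978 without FaDu control replicate 1, and 1.73 for HSPA6, which lost its call on adjusted p without FaDu control replicate 3 (0.0506), SAS control replicate 1 (0.0606) or SAS control replicate 3 (0.0859). HSPH1 was also altered between controls, at -1.20. Radiation alone altered 0 genes of these 8 lists in either spheroid type by edgeR, and 1 in FaDu by DESeq2, while the replicate block, like the fit without the filter, gave 3 in FaDu and 1 in SAS, all bZIP partners. Leaving out 1 library gave 1 stress effector in FaDu (without control replicate 1), 1 in SAS (without RT replicate 1) and 1 bZIP partner in SAS (without control replicate 3).

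**Figure D4:**
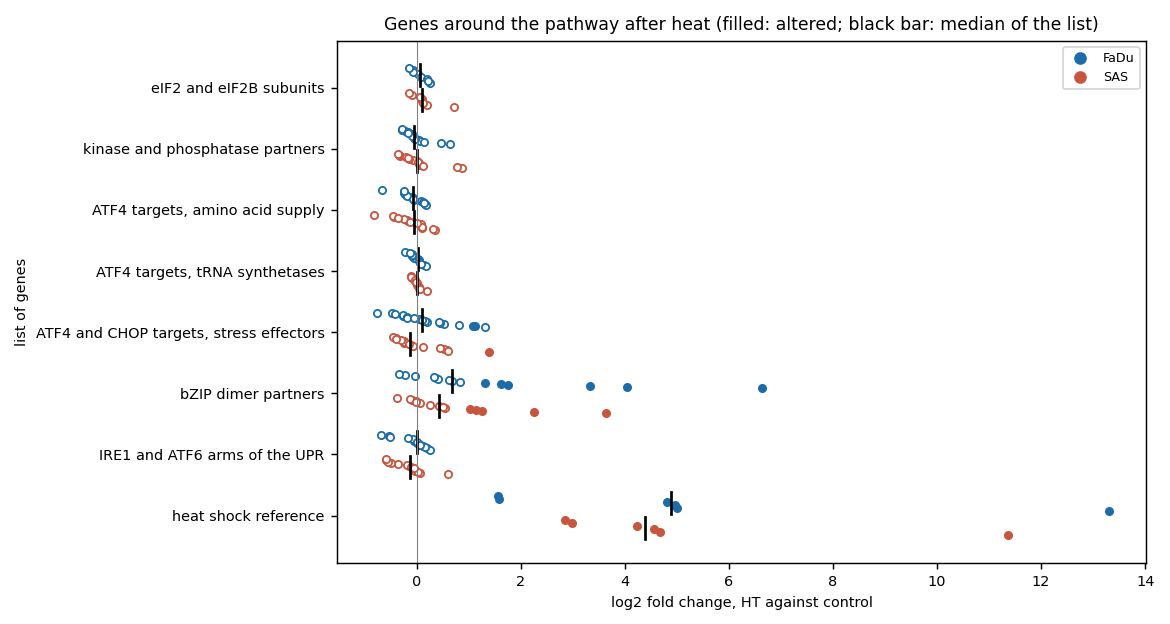
Log2 fold change after HT against control (horizontal axis) for each gene tested of 8 lists around the pathway (vertical axis), FaDu in blue and SAS in red; filled dots were altered and black bars are list medians. The median of the bZIP partners is 0.688 in FaDu and 0.42 in SAS, that of the heat shock reference 4.88 and 4.40, and those of the other 6 lists lie within 0.13 of 0.

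Over the means of the 8 conditions, the genes most like PPP1R15A among 9481 compared were IER5 (Pearson r of log2 CPM 0.976), RAC3 (0.975) and ARC (0.972). Those most like ATF3 were IL6 (0.993), MCL1 (0.986) and OVOL1 (0.976). The points share spheroid type and heat, and the values are descriptions.

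The spheroids were checked against markers of cell types. All 9 squamous epithelial markers were expressed, with KRT17 the most abundant and a summed level of 9830 to 11700 CPM in the FaDu libraries against 3760 to 4600 CPM in those of SAS. Of 6 fibroblast markers, COL1A1 was the most abundant, and COL1A2, COL3A1, PDGFRB, DCN and LUM each averaged below 1 CPM. The fibroblast sum moved with heat in SAS, from 1.87, 1.65 and 2.4 CPM in controls and 2.48, 1.88 and 2.29 CPM after RT to 31.9, 17.2 and 24.9 CPM after HT and 25.8, 25.1 and 24.8 CPM after HT + RT. It was 36.2, 43 and 46.6 CPM in FaDu controls, 34.3, 44.6 and 47.6 CPM after RT, 50.3, 48.3 and 64 CPM after HT and 44.7, 56.7 and 65.1 CPM after HT + RT. COL1A1 carried these sums, and in SAS its log2 fold change was 4.18 after HT, 4.23 after HT + RT and 4.11 for HT + RT against RT. It also differed between controls, at 5.01, and in the HT and HT + RT interactions, at -3.76 in each. Their part in the member results was not tested.

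Of 4 endothelial markers CDH5 was the most abundant and PECAM1 and KDR averaged below 1 CPM, with sums of 6.1 to 8.72 CPM in FaDu and 9.53 to 23.5 CPM in SAS. Between controls CDH5 (-1.76) and PECAM1 (2.32) were altered. Of 4 melanocyte and neural markers PMEL was the most abundant, SOX10 had 0 counts in all libraries and the sums were 1.7 to 6.17 CPM. PMEL was altered between controls at 1.24.

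Exons of 5 members share bases with genes on the opposite strand, and the files do not state whether counting was stranded. DDIT3 shares 355 of its 1307 exon bases with MARS, which had 71843 counts over all libraries beside 9466 for DDIT3. MARS moved by -0.0605 in FaDu and 0.0473 in SAS after HT on the log2 scale, and neither passed adjusted p. DDIT3 also shares 58 bases with MBD6, which had 41256 counts and did not pass adjusted p after HT in either spheroid type. ATF5 shares 626 of 2954 bases with NUP62, which had 35899 counts beside 13523 for ATF5, and 75 bases with IL4I1, which had 155 counts. NUP62 fell in FaDu after HT by 0.49 on the log2 scale (adjusted p 0.0185) and stood at -0.0637 in SAS (adjusted p 0.542), so its part in the lower ATF5 values of FaDu was not tested. EIF2AK1 shares 532 bases with AIMP2, EIF2AK2 shares 401 with AC007899.1 and 35 with GPATCH11, and EIF2AK3 shares 781 with AC104134.1 and 38 with AC062029.1. PPP1R15A, PPP1R15B, ATF3, ATF4 and EIF2AK4 share none.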

How the data were processed

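RNA of 24 spheroid libraries (8 groups of 3) had been counted per gene by the authors, and the deposited tables hold whole-number counts; aligner, counting program, strand setting and annotation are not given, and the notes name a mouse build (mm9) for these human samples. The 7 tables hold 42 columns, of which 18 repeat control libraries, and 0 of these differ. Of 57500 identifiers, 56898 are in GENCODE v29; the other 602 carry 0.0217% of counts. Each comparison used its own groups in edgeR 4.0.16 (R 4.3.3): filterByExpr with a minimum count of 10, TMM, quasi-likelihood test, Benjamini-Hochberg adjustment over all genes tested. Alternatives were each library left out in turn, calls by adjusted p without the size threshold, a block for replicate number, 1 fit of all groups, genes with 10 or more counts in all libraries, omission of the filter, size factors by RLE, and the Wald test of DESeq2 1.42.0; levels were also computed as CPM without TMM and with RLE scaling. The submitters number replicates 1 to 3, and the methods name 3 independent experiments. Residuals of equal numbers correlated above 0.1 in every pair of most comparisons. The exceptions were HT against control for SAS, the controls and the HT and HT + RT interactions. The reported fits took no account of this correlation in any comparison, and the block was an alternative only. Low counts for RT and for HT + RT against HT are thus counts of fits without pairing. For RT in FaDu 5 genes passed adjusted p, beside 312 with the block. The members and lists were chosen with earlier results of these data known. Named genes were all 10 members; per list the 3 highest and 3 lowest altered after HT in each spheroid type, plus every altered gene where a list had 3 or fewer in a comparison; and the 3 genes most like each altered member over the condition means. Lists covered eIF2 and eIF2B subunits, kinase and phosphatase partners, 3 groups of ATF4 and CHOP targets, bZIP partners, the IRE1 and ATF6 arms, a heat shock reference, and markers of epithelium, fibroblasts, endothelium, and melanocytes and neurons; a list of leukocyte markers was computed and its result is left out of the text. Depth was 15203484 to 29452514 counts per library. The code was tested on simulated data.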

Additional observations from a re-analysis of the deposited data

Results flagged for a closer look

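In 9 tests of the difference between spheroid types, a member passed adjusted p by the interaction term (log2 fold change in FaDu minus that in SAS). For HT these were ATF3 at 2.40, PPP1R15A at 1.55, PPP1R15B at 0.964, ATF4 at 0.442 and EIF2AK2 at -0.443. For HT + RT they were ATF3 at 2.54, PPP1R15A at 1.76, PPP1R15B at 0.917 and EIF2AK2 at -0.568. PPP1R15A and ATF3 rose in both spheroid types, by a larger fold in FaDu. For PPP1R15A the FaDu level began lower, and every heated FaDu library stayed below every heated SAS library. PPP1R15B rose after HT in FaDu and fell in SAS, and EIF2AK2 rose in SAS; its lower value in FaDu passed with the replicate block (adjusted p 0.0248 for HT and 0.0244 for HT + RT) and not without it (0.201 and 0.169). Without SAS HT replicate 1 the PPP1R15B fall had an adjusted p of 0.0524. The ATF4 term lost adjusted p with RLE size factors and in 11 of the 12 fits without 1 library. The radiation dose differed between the types in the HT + RT term, and the HT term involves no radiation.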

How the results depend on the processing

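Under the alternatives, 1786 of 1860 member values kept direction and side of the threshold, 67 changed sign and 7 were newly altered, while 0 altered members lost the call. Of the 67, 63 came from leaving out 1 library. The largest of the 67 had a size of 0.0743, and 0 of them belonged to a value past adjusted p alone. PPP1R15A and ATF3 stayed altered by HT, HT + RT and HT + RT against RT in both spheroid types under every alternative.

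Radiation in FaDu depended on the method. Members altered went from 0 to 1 by DESeq2, 1 without the filter on low counts and 1 with the replicate block. Members past adjusted p alone went from 0 to 2, 2 and 3 in the same order, beside 58 of 14282, 147 of 32294 and 312 of 15552 genes. Leaving out libraries gave 0 to 1, with the 1 (PPP1R15A) without FaDu RT replicate 1, where 24 of 15924 genes passed. The cause was not tested.

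Other member counts past adjusted p alone moved with the replicate block. Counts over all genes rose too in the comparisons of treatments, for example to 5189 of 15879 for HT in FaDu, where 2801 passed without it. In FaDu the members went to 8 for HT, 8 for HT + RT and 5 for HT + RT against HT. The last 2 stood beside 5225 of 15896 and 154 of 16145 genes. In SAS they went to 5 for HT, 6 for HT + RT, 9 for HT + RT against RT and 2 for HT + RT against HT. Genes passing in the same SAS fits were 4413 of 15000 for HT and 5299 of 14938 for HT + RT. They were 5883 of 15125 for HT + RT against RT and 139 of 15341 for HT + RT against HT. The interactions went to 1 for RT, 6 for HT and 6 for HT + RT, with EIF2AK3 gained in the last pair (adjusted p 0.0121 and 0.00416). Beside them 18 of 16811 genes passed for RT, 1886 of 17219 for HT and 2576 of 17219 for HT + RT. Without the filter the members passing were 1 for HT + RT against HT in SAS and 1 for the RT interaction, beside 92 of 31186 and 38 of 34996 genes. For HT in FaDu, leaving out libraries gave 3 (without FaDu control replicate 2 and again without replicate 3) to 6 (without FaDu HT replicate 1). Genes passing in these fits were 1724 of 16466, 1453 of 16439 and 3258 of 16397, in the same order. The cause was not tested. When adjusted p alone defined altered, by construction of the wider rule, members altered were 5 for HT, 5 for HT + RT and 5 for HT + RT against RT in FaDu, 4, 4 and 7 in SAS, 9 between controls, 5 in the HT interaction and 4 in the HT + RT interaction. The shares of all genes under that rule are given above with each comparison.

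The sign changes were all in log2 fold changes near 0. With at least 10 counts in every library, HT + RT in FaDu gave 0.0132 for EIF2AK1 and 0.0089 for EIF2AK4. For EIF2AK4 the HT interaction was -0.0153 without the filter and -0.0206 with all groups in 1 fit. The cause was not tested.

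Leaving out 1 library gave ranges that crossed 0, from small values and with fewer libraries. For RT in FaDu they were -0.0144 to 0.0319 for EIF2AK1, -0.129 to 0.0352 for EIF2AK2, -0.154 to 0.0536 for EIF2AK3 and -0.136 to 0.0312 for EIF2AK4. For HT + RT in FaDu they were -0.0274 to 0.021 for EIF2AK1 and -0.0832 to 0.0743 for EIF2AK4. For HT + RT against RT in FaDu they were -0.0336 to 0.00804 for EIF2AK1, -0.0355 to 0.126 for EIF2AK4 and -0.0621 to 0.018 for ATF4. For HT + RT against HT in FaDu they were -0.0334 to 0.0406 for EIF2AK2 and -0.0569 to 0.194 for EIF2AK3.

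In SAS, RT gave -0.00173 to 0.0259 for EIF2AK1, -0.0171 to 0.00114 for EIF2AK2, -0.32 to 0.0037 for EIF2AK3 and -0.152 to 0.022 for DDIT3. HT gave -0.0969 to 0.0289 for ATF4, and HT + RT gave -0.0203 to 0.0873 for PPP1R15B. HT + RT against HT gave -0.0227 to 0.00972 for EIF2AK1, -0.107 to 0.0469 for PPP1R15A, -0.121 to 0.00441 for ATF4 and -0.0119 to 0.207 for ATF5. Between controls PPP1R15B gave -0.135 to 0.02996. The RT interaction gave -0.0182 to 0.0276 for EIF2AK1, -0.115 to 0.0542 for EIF2AK2, -0.0557 to 0.264 for EIF2AK3, -0.029 to 0.134 for PPP1R15B and -0.118 to 0.0602 for ATF5. The HT interaction gave -0.0598 to 0.107 for EIF2AK4 and -0.0496 to 0.201 for ATF5.

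The 7 newly altered values were ATF3 under RT in FaDu by 3 methods, PPP1R15B in HT + RT of FaDu (1.002) and in the interactions for HT (1.05) and HT + RT (1.003) without FaDu control replicate 1, and DDIT3 between controls (-1.03) without SAS control replicate 3. Of 1651 list gene values, 1601 were altered in the alternative too, 50 were not and 0 changed sign. Of 1488 counts of altered genes per list, 32 lay more than 1.5 times from the reported count. Of 80 member levels, 46 lay within 1 SD without TMM and 73 with RLE scaling.

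With 3 libraries per group, small differences can be missed, and a result that 1 library decides is weak. One time point, 0.5 h, shows the start of a response and not its course. Counts do not measure phosphorylation of eIF2 alpha or IRE1, splicing of XBP1, translation or protein. Radiation dose and spheroid type cannot be told apart where RT or HT + RT is compared between types. The strand setting of counting is not given, which bears on 5 members whose exons share bases with other genes. Members and lists were chosen with earlier results of these data known.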
